A study of Homo sapiens with 6 samples.

Results

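NEDD9, its 3 relatives of the CAS scaffold family (BCAR1, EFS, CASS4) and 6 core genes of focal adhesions (PTK2, PXN, ZYX, VCL, TLN1, SRC) were described in MDA-MB-231, a human cell line of triple-negative breast cancer that has mesenchymal traits. These are 10 of the 18417 named genes measured. The groups compared were 3 arrays of cells given 1 µM selamectin for 24 h, and 3 arrays of control cells of the same line. Their titles say untreated and the protocol text says vehicle, so it is unclear what the controls received. Selamectin is a veterinary antiparasitic of the avermectin family, and the series title presents avermectins as inhibitors of the SIN3 corepressor. All arrays used here come from 1 cell line in culture and 1 dose. Each value is a log2 expression value of a transcript cluster, the group of array probes assigned to 1 gene; an increase of 1 is a doubling.

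The genes were chosen by symbol, and each had a cluster with exactly 1 symbol in the platform annotation. PXN had 2 such clusters, and the one with the higher mean over the 6 arrays was used. NEDD9 heads the set because its difference between the groups was among the largest decreases in these same arrays, so its values are given as a description with no test. The other 9 genes were named for family or function, with the results of the whole series already known, and each was read from a fit over all 18417 genes.

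Focal adhesions are the plaques where integrins, receptors for the extracellular matrix, are coupled to actin filaments. Talin (TLN1) binds and activates integrins, and vinculin (VCL) strengthens the talin-actin link. Paxillin (PXN) and zyxin (ZYX) are LIM-domain adaptors, and focal adhesion kinase (PTK2) and SRC phosphorylate the plaque. CAS proteins are scaffolds without catalytic activity that carry an SH3 domain and many tyrosine sites; when PTK2 and SRC phosphorylate these sites, CRK adaptors bind and recruit DOCK exchange factors that activate the GTPase RAC1. BCAR1 is the broadly expressed member, EFS and CASS4 are less studied, and NEDD9 is known for roles in cell migration and metastasis and as a partner of the mitotic kinase AURKA.

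NEDD9 lies on chromosome 6, chr6:11183298-11382348 on the minus strand (RefSeq, GRCh38.p14; the submitters' build: not given in the sources used here). RefSeq promoter windows were found for 7 of the 10 genes, namely NEDD9, BCAR1, EFS, PXN, ZYX, VCL and TLN1, and NEDD9 has 3 windows. The first 2 of these starts are 38 bases apart, and the innermost lies 149680 bases inside the gene. The array cluster gives 1 value for the gene and does not separate transcripts from these starts. The 250 bases before the outermost and the innermost start are shown because NEDD9 is the gene of the set whose level differed most; CpG dinucleotides are in capitals, and the sequences read 5′ to 3′ on the minus strand.
NEDD9 outermost start, chr6:11382349-11382598: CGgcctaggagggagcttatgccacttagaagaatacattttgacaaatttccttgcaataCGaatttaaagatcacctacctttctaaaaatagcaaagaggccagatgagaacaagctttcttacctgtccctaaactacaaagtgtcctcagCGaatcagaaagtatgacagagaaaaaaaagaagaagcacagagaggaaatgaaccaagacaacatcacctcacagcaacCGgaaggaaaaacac
NEDD9 innermost start, chr6:11232669-11232918: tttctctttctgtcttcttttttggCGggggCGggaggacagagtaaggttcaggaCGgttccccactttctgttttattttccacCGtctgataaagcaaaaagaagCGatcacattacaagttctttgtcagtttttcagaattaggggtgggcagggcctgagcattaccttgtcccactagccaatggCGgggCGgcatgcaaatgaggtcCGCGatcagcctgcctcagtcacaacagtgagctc

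The outermost NEDD9 window had a GC content of 40.4% with 4 CpG, and the innermost 50.0% with 9 CpG. The 11 windows of the 6 other genes lay between 53.6% and 83.6%, and the median of all 35116 windows in the table was 58.0%. All 3 NEDD9 windows were thus poorer in GC than every window of the other 6 genes. Both strands of each window were searched for 4 motifs: the E-box CACGTG (in 6.34% of all windows), the AP-1 site TGANTCA (6.57%), the TATA box TATAAA (10.7%) and the CArG box (1.16%). None of the motifs was found in the 3 NEDD9 windows. Among all 14 windows the search gave 1 match, an AP-1 site in the outermost BCAR1 window, 64 bases before the start (chromosome 16). These matches describe letters in the windows only.

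The identity of the cells was checked first, with marker lists read against the whole array, where 4.69% of all 18417 genes passed an adjusted p of 0.05 in limma and 19.9% had an unadjusted p under 0.05. Of 7 genes listed as present in this line, 1 passed, the hyaluronan receptor CD44 (10.91 on selamectin arrays, 10.48 on untreated arrays, log2 difference 0.42, limma adjusted p = 0.020), and 4 had an unadjusted p under 0.05, CD44, VIM and CAV1 with positive differences and the growth factor receptor EGFR with a negative one (-0.32, adjusted p = 0.053). VIM, the mesenchymal filament vimentin, averaged 12.90 on selamectin arrays and 12.67 on untreated arrays, while the epithelial cadherin CDH1 averaged 6.01 with selamectin and 6.27 untreated and the progesterone receptor PGR 5.74 with selamectin and 5.60 untreated. Of the 8 genes listed as low in this line, the simple keratins KRT8 (13.79 on selamectin arrays, 13.71 on untreated arrays) and KRT18 (13.49 on selamectin arrays, 13.41 on untreated arrays) were bright, against that list. ERBB2 of the same list stood at 9.08 with selamectin and 9.17 untreated, also above the array medians of 7.47 to 7.51. The listed genes ESR1, EPCAM and GATA3 lay below those medians. In limma 0 of the 8 passed, with 2 at an unadjusted p under 0.05, CDH1 and EPCAM, both with negative differences. Markers of leukocytes, in which NEDD9 is also known as CAS-L, were dim: 7 of 8 were measured, their mean lay between 6.13 and 6.16 on selamectin arrays and between 6.09 and 6.18 on untreated arrays, and 0 passed the test in limma, with 0 at an unadjusted p under 0.05. Endothelial markers (6 of 6 measured) averaged 6.63 to 6.76 on selamectin arrays and 6.63 to 6.78 on untreated arrays, and 0 passed in limma, with 2 at an unadjusted p under 0.05. These went opposite ways: CDH5 stood at 8.93 with selamectin and 9.52 untreated (log2 difference -0.59, limma adjusted p = 0.067), and VWF at 5.96 with selamectin and 5.78 untreated (0.18, adjusted p = 0.25). Fibroblast markers (8 of 8) averaged 6.90 to 6.99 on selamectin arrays and 6.82 to 6.92 on untreated arrays, and 1 passed in limma, PDGFRB, with a log2 difference of 0.34 (adjusted p = 0.040), with 2 at an unadjusted p under 0.05, PDGFRB and DCN, both with positive differences. The part of these markers in the results below was not tested. Without detection calls, a dim value cannot be told from background. Selamectin array 3 stood apart from the other arrays on the second principal component, which held 20.8% of the variance over all genes.

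NEDD9 had log2 values of 8.58, 8.22 and 7.89 on selamectin arrays 1, 2 and 3, against 9.35, 9.46 and 9.25 on untreated arrays 1, 2 and 3. All selamectin values lay below all untreated values, with a gap between the groups wider than the whole untreated range, and selamectin array 3 held the lowest value. In RNA from whole cultures, a lower level in every cell cannot be told apart from fewer cells that carry the transcript. The means were 8.23 ± 0.35 with selamectin and 9.35 ± 0.10 in untreated cells (SD, n = 3 each), a difference of -1.12, or 2.18-fold lower. By size this was decrease number 7 of 18417 genes. The difference was -0.95 without selamectin array 3 and lay between -1.30 and -0.95 whichever array was left out. Median centring, a second quantile normalization and the other settings that kept all 6 arrays gave values between -1.13 and -0.96.

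**Figure D1:**
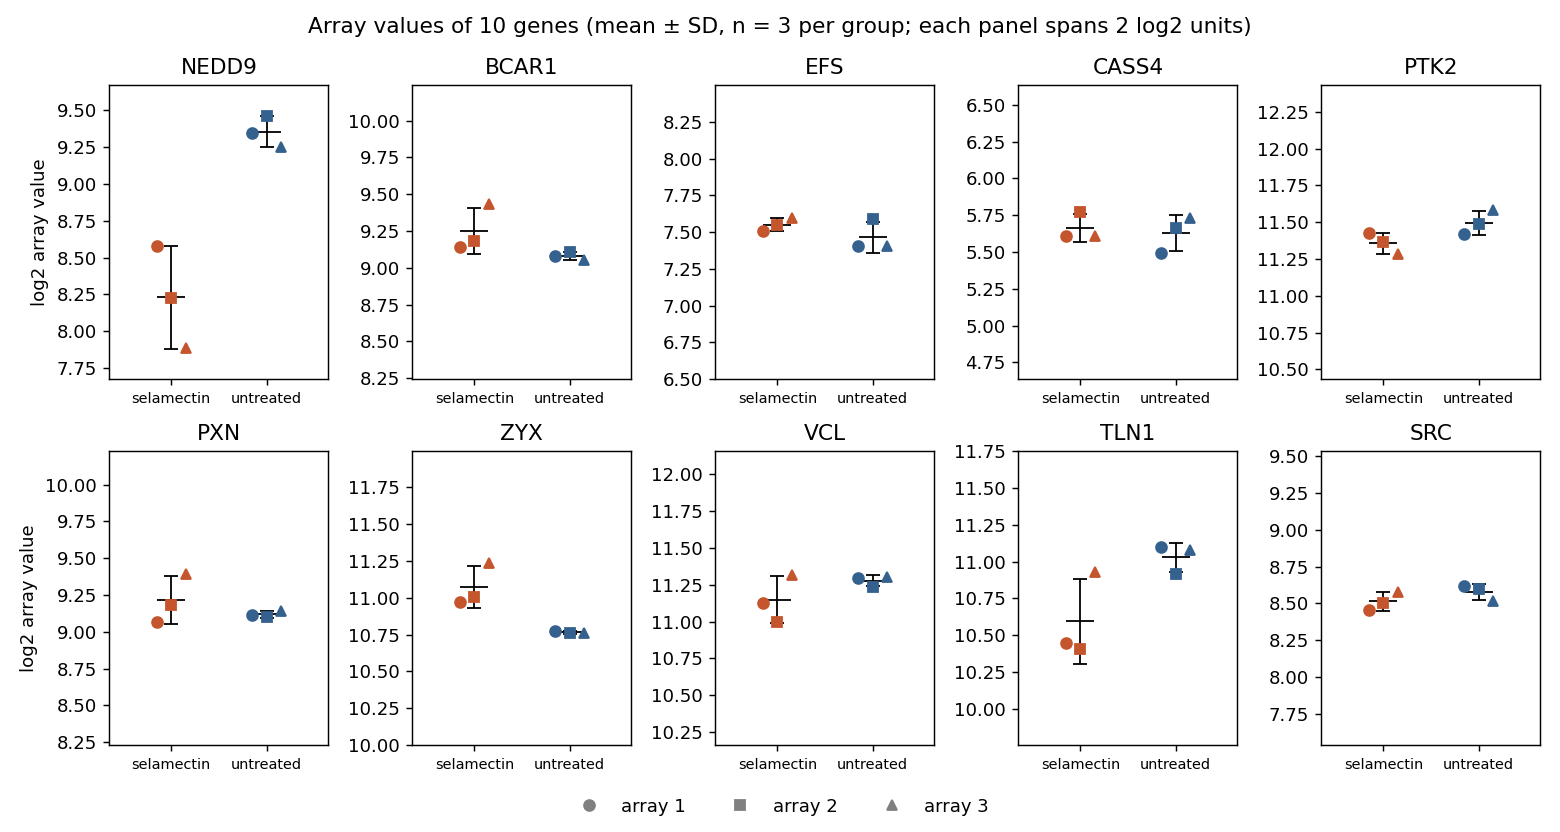
Log2 array values (vertical axes, each spanning 2 log2 units) of the 10 genes on 3 selamectin arrays (orange) and 3 untreated arrays (blue); the bars are means ± SD and the symbol shape is the array number. NEDD9 is the gene with a wide gap between groups, at 7.89 to 8.58 on selamectin arrays and 9.25 to 9.46 on untreated arrays. Vertical positions are not to be compared between genes.

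None of the other 9 genes passed an adjusted p of 0.05 in limma, where 4.69% of all 18417 genes did (2.41% higher and 2.28% lower). At an unadjusted p under 0.05 there were 2 of the 9, ZYX and TLN1, a share near the 19.9% of all genes. The groups did not overlap for 2 of the 9, BCAR1 and ZYX; among all genes this was so for 25.3%. With 3 arrays per group, a gene that missed the threshold is not shown to be unaltered, and its 95% interval is given for that reason.

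The other CAS scaffolds had small positive differences, none of them past the threshold. BCAR1, the p130Cas scaffold, had 9.14, 9.18 and 9.43 on selamectin arrays 1 to 3, against 9.08, 9.11 and 9.05 on untreated arrays 1 to 3. Its groups did not overlap, but the selamectin values on arrays 1 and 2 were at most 0.10 above the untreated mean while array 3 stood 0.35 above it. The log2 difference was 0.17 (95% interval -0.05 to 0.40, limma adjusted p = 0.38). EFS had 7.51, 7.55 and 7.60 on selamectin arrays, against 7.40, 7.59 and 7.40 on untreated arrays, and the groups overlapped (0.09, interval -0.11 to 0.28, adjusted p = 0.63). CASS4, a dim cluster, had 5.61, 5.78 and 5.61 on selamectin arrays, against 5.50, 5.66 and 5.73 on untreated arrays. Its groups overlapped, the difference was 0.03 (interval -0.14 to 0.21, adjusted p = 0.85), and its sign turned when array weights were used or when untreated array 1 or selamectin array 2 was left out.

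Within each array, NEDD9 was also set against its relatives, which removes any shift shared by both genes of a pair. Relative to the untreated mean, NEDD9 minus BCAR1 stood at -0.84, -1.23 and -1.82 on selamectin arrays 1, 2 and 3, against -0.07 to 0.08 on the untreated arrays. For NEDD9 minus EFS the selamectin values were -0.82, -1.22 and -1.60, and for NEDD9 minus CASS4 they were -0.75, -1.28 and -1.45. The untreated arrays of these last pairs lay between -0.04 and 0.06 and between -0.20 and 0.13. Against each relative NEDD9 was lower on every selamectin array than on any untreated array, least so on array 1 and most on array 3. These contrasts carry the NEDD9 difference by which the gene was picked and were not tested.

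The kinases PTK2 and SRC had small negative differences that did not pass. PTK2, the focal adhesion kinase, had 11.43, 11.36 and 11.28 on selamectin arrays, against 11.42, 11.48 and 11.58 on untreated arrays. The groups overlapped only through selamectin array 1, and the difference was -0.14 (interval -0.32 to 0.04, limma adjusted p = 0.38). SRC, the founding tyrosine kinase of its family, had 8.45, 8.50 and 8.58 on selamectin arrays, against 8.62, 8.60 and 8.51 on untreated arrays, with a difference of -0.06 (interval -0.26 to 0.13, adjusted p = 0.73).

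Among the adaptors, ZYX had the larger difference. Zyxin, which moves to strained actin fibres, had 10.97, 11.00 and 11.24 on selamectin arrays, against 10.77, 10.76 and 10.76 on untreated arrays. Every selamectin array lay above a very narrow untreated range, and array 3 was again the most extreme. The means were 11.07 ± 0.14 with selamectin and 10.76 ± 0.01 untreated (SD, n = 3 each), 1.24-fold higher with selamectin (log2 difference 0.31, interval 0.11 to 0.51), with a limma adjusted p of 0.085, which misses the threshold. With array weights it passed (0.27, adjusted p = 0.020); untreated array 3 then carried a weight of 5.11, against 0.66 and 0.45 for untreated arrays 1 and 2. PXN had 9.07, 9.18 and 9.39 on selamectin arrays, against 9.11, 9.10 and 9.14 on untreated arrays. Only selamectin array 3 stood clearly above the untreated range, and the difference was 0.10 (interval -0.13 to 0.32, adjusted p = 0.64). The second, dimmer PXN cluster showed 8.17, 8.24 and 8.35 on selamectin arrays, against 8.23, 8.20 and 8.19 on untreated arrays, with the same order among the selamectin arrays and a difference of 0.05.

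Talin and vinculin had negative differences, neither past the threshold. TLN1 had 10.45, 10.41 and 10.93 on selamectin arrays, against 11.10, 10.91 and 11.08 on untreated arrays. Selamectin arrays 1 and 2 were far below the untreated values while array 3 lay among them. The means were 10.59 ± 0.29 with selamectin and 11.03 ± 0.10 untreated (SD, n = 3 each), 1.35-fold lower with selamectin (log2 difference -0.43, interval -0.72 to -0.14, limma adjusted p = 0.089), which misses the threshold. Without selamectin array 3 the difference was -0.60 and passed (adjusted p = 0.0042), and it also passed with array weights (-0.55, adjusted p = 0.0029). VCL had 11.13, 11.00 and 11.32 on selamectin arrays, against 11.30, 11.24 and 11.30 on untreated arrays. It too was lowest on arrays 1 and 2 and at the untreated level on array 3 (-0.13, interval -0.34 to 0.08, adjusted p = 0.49).

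The selamectin arrays thus differed among themselves in a way that several of these genes shared. Selamectin array 3 held the highest of the 3 selamectin values of BCAR1, EFS, PXN, ZYX, VCL, TLN1 and SRC, and the lowest of NEDD9 and PTK2. For CASS4 its value lay between those of the other selamectin arrays. Array 3 also stood apart over all genes on the second principal component. How often genes outside the set had such an order was not counted.

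**Figure D2:**
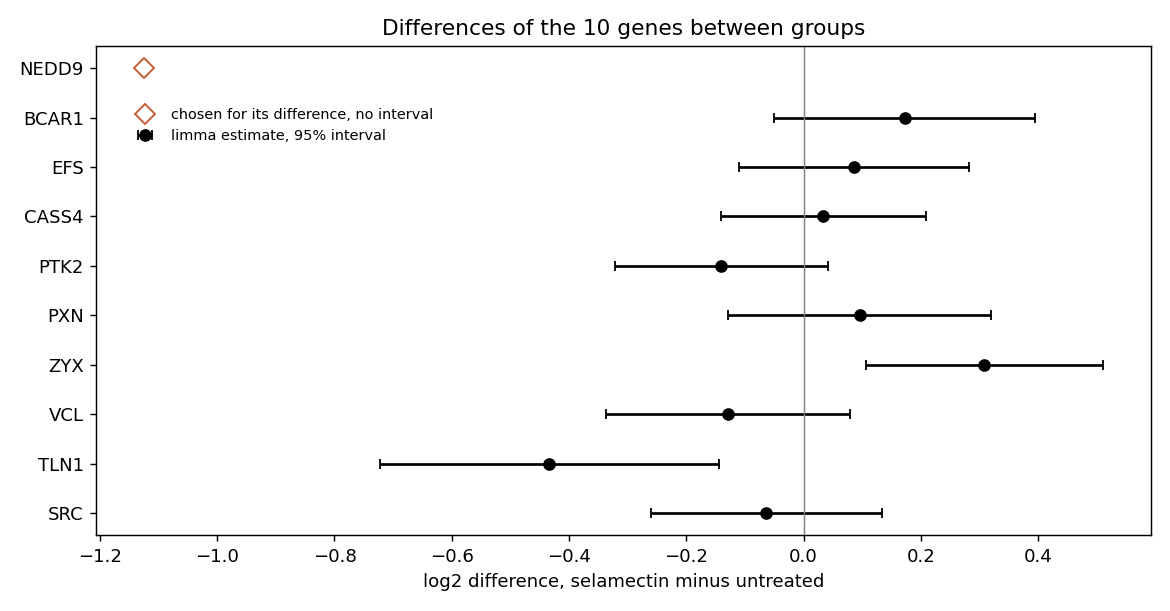
Log2 difference, selamectin minus untreated (horizontal axis), for the 10 genes; points are limma estimates with 95% intervals not adjusted for the number of genes, and NEDD9 is drawn without an interval because it was chosen for its difference. NEDD9 sits at -1.12, while the other genes lie between -0.43 (TLN1) and 0.31 (ZYX).

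Around the set, 4 lists with 89 measured genes in all gave 3 rises and 4 falls in limma, or 7.87% called, against 4.69% of all genes, and a median log2 difference of 0.03, against 0.04 over all genes. The lists were put together with earlier results of these data known, and the shares are given as a description. The count was 1 without untreated array 1, 2 without untreated array 3 and 3 when selamectin array 2 was left out. With array weights it was 21, and 1822 genes then rose and 1464 fell over all genes. When all 33297 clusters entered the fit, the count of list genes was 1, PARVA.

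Integrins are the receptors that these proteins serve. Of 18 measured, 2 fell and none rose, or 11.1% called, against 4.69% of all genes. An unadjusted p under 0.05 in limma was found for 4 with negative and 0 with positive differences, against 19.9% of all genes. There were 7 positive and 11 negative differences, with a median of -0.10. ITGB3, the beta subunit that pairs with ITGAV in the vitronectin receptor, had 6.97, 7.00 and 6.59 on selamectin arrays, against 7.58, 7.41 and 7.33 on untreated arrays (-0.59, limma adjusted p = 0.021). Its means, 6.85 with selamectin and 7.44 untreated, lay below the array medians of 7.47 to 7.51. Its call was lost without untreated array 1 (adjusted p = 0.091) or untreated array 3 (0.052). ITGB5, another beta partner of ITGAV, had 11.21, 11.26 and 11.26 on selamectin arrays, against 11.49, 11.66 and 11.59 on untreated arrays. Its difference was -0.34 (adjusted p = 0.038), and the call held only when selamectin array 3 was the array left out (adjusted p up to 0.15 otherwise); it was also lost with the replicate block (0.060). Without passing, ITGB4, the hemidesmosome subunit, stood at -0.35 (limma adjusted p = 0.074) and ITGB1, the common beta subunit, at -0.25 (0.12). ITGAV at -0.20 (0.27) and the dim cluster of ITGA10 at 0.17 (0.26) did not pass either. Without untreated array 1 or untreated array 3, 0 integrins passed.

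Adaptors and actin linkers of adhesions held 4 of the 7 calls. Of 36 measured, 3 rose and 1 fell, or 11.1% called, against 4.69% of all genes, with a median of 0.06. An unadjusted p under 0.05 in limma was found for 6 with positive and 4 with negative differences, against 19.9% of all genes. PARVA, alpha-parvin, which joins integrin-linked kinase to actin, had 11.20, 11.09 and 11.35 on selamectin arrays, against 10.42, 10.34 and 10.63 on untreated arrays. The groups were well apart, and PARVA rose by 0.75 log2 units, or 1.69-fold (limma adjusted p = 0.0047); it passed whichever array was left out. TNS2, a tensin that binds integrin tails, rose by 0.49 (9.75 ± 0.04 with selamectin and 9.26 ± 0.13 untreated, SD, n = 3; adjusted p = 0.019) and lost its call without untreated array 1 (0.086) or selamectin array 2 (0.086).

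The relatives of zyxin differed in direction. TRIP6, a LIM protein of the zyxin family, had 10.74, 11.01 and 10.95 on selamectin arrays, against 10.31, 10.57 and 10.51 on untreated arrays. It rose by 0.44 (limma adjusted p = 0.039) and the call held only when selamectin array 1 was the array left out (adjusted p from 0.0501 to 0.17 otherwise); it was also lost with a second quantile normalization (0.055). LPP, the lipoma preferred partner of the same family, had 10.39, 10.28 and 10.86 on selamectin arrays, against 11.25, 10.95 and 11.17 on untreated arrays. It fell by 0.61 (adjusted p = 0.037); as for TLN1, selamectin array 3 lay nearest to the untreated values, and the call was lost without untreated array 1 (0.15), untreated array 3 (0.13), selamectin array 1 (0.091) or selamectin array 2 (0.15). PDLIM7 (0.33, adjusted p = 0.063), FHL2 (-0.31, 0.071), the kindlin FERMT1 (0.27, 0.17) and the tensin TNS3 (-0.28, 0.22) did not pass.

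Kinases and phosphatases of the plaque held no call in limma. Of 14 measured, 0 passed and 0 had an unadjusted p under 0.05, against 4.69% and 19.9% of all genes, with a median of 0.03. With array weights, where 1822 genes rose and 1464 fell among all 18417, 1 of the 14 passed. This was RB1CC1, an inhibitor of PTK2 that also works in autophagy (-0.29, limma adjusted p = 0.041). The genes with the smallest p were PTPN1 (0.21, adjusted p = 0.25), LCK (0.18, 0.30), RB1CC1 (-0.21, 0.36) and FYN (-0.21, 0.42). FYN, a SRC family kinase, had 11.71, 11.58 and 11.11 on selamectin arrays, against 11.71, 11.58 and 11.76 on untreated arrays, so that only selamectin array 3 lay below the untreated range.

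Partners of the CAS proteins and the path from CRK to RAC1 held 1 fall and no rise among 21 measured. This was 4.76%, against 4.69% of all genes, and the median was -0.02. An unadjusted p under 0.05 in limma was found for 2 with positive and 4 with negative differences, against 19.9% of all genes. DOCK4, an exchange factor of the DOCK180 family, had 9.53, 9.41 and 9.24 on selamectin arrays, against 10.10, 9.90 and 10.22 on untreated arrays. It fell by 0.68 log2 units, or 1.60-fold lower (limma adjusted p = 0.0097), without overlap between the groups, and it missed the threshold without untreated array 1 (0.053) or untreated array 3 (0.052). DOCK1, the exchange factor first tied to the CAS-CRK complex, had 9.76, 9.79 and 9.86 on selamectin arrays, against 10.10, 10.05 and 10.13 on untreated arrays, a difference of -0.29 that did not pass (adjusted p = 0.082). BCAR3, which binds the C-terminal part of CAS proteins, stood at -0.30 (0.13), SMAD3, a TGF-beta effector that interacts with NEDD9, at -0.23 (0.17) and the adaptor CRKL at 0.22 (0.18).

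**Figure D3:**
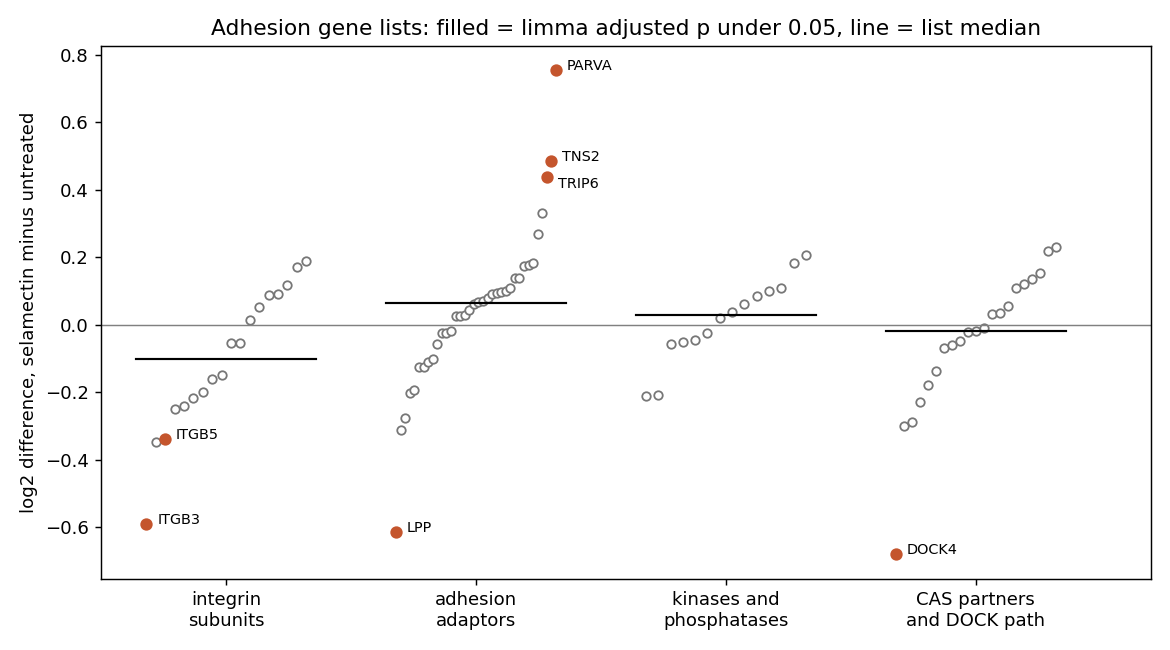
Log2 difference, selamectin minus untreated (vertical axis), of every measured gene in 4 adhesion lists, sorted within each list; filled points passed an adjusted p of 0.05 in limma and horizontal lines are list medians. The calls are 3 rises, led by PARVA at 0.75, and 4 falls, led by DOCK4 at -0.68.

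Genes outside the set were ranked by how close their profiles over the 6 arrays were to NEDD9. Small RNA and placeholder symbols were skipped, namely those that begin with LOC, LINC, MIR, SNOR, FAM or KIAA or name an open reading frame. The 6 closest of the remaining genes were HSPA2, KYAT1, CTH, WIPI1, ZC3H6 and LPL. Likeness was the root mean square difference between profiles centred on each gene's own mean, from 0.10 log2 units for HSPA2 to 0.16 for LPL, and Pearson r over 6 arrays lay between 0.97 and 0.99, as a description of 6 points in 2 groups. HSPA2, an HSP70-type chaperone, had 9.91, 9.68 and 9.24 on selamectin arrays, against 10.82, 10.63 and 10.70 on untreated arrays. KYAT1, a kynurenine aminotransferase, had 9.74, 9.46 and 9.32 on selamectin arrays, against 10.35, 10.65 and 10.46 on untreated arrays. CTH, which makes cysteine by transsulfuration, had 12.65, 12.49 and 11.82 on selamectin arrays, against 13.64, 13.49 and 13.53 on untreated arrays. On each of these genes, as on NEDD9, selamectin array 3 was the lowest array. WIPI1, an autophagy protein, and LPL, the lipoprotein lipase, were also lowest on that array. No adhesion gene was among the 6, and the likeness is a description, since every gene chosen this way must share the difference of NEDD9.

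**Figure D4:**
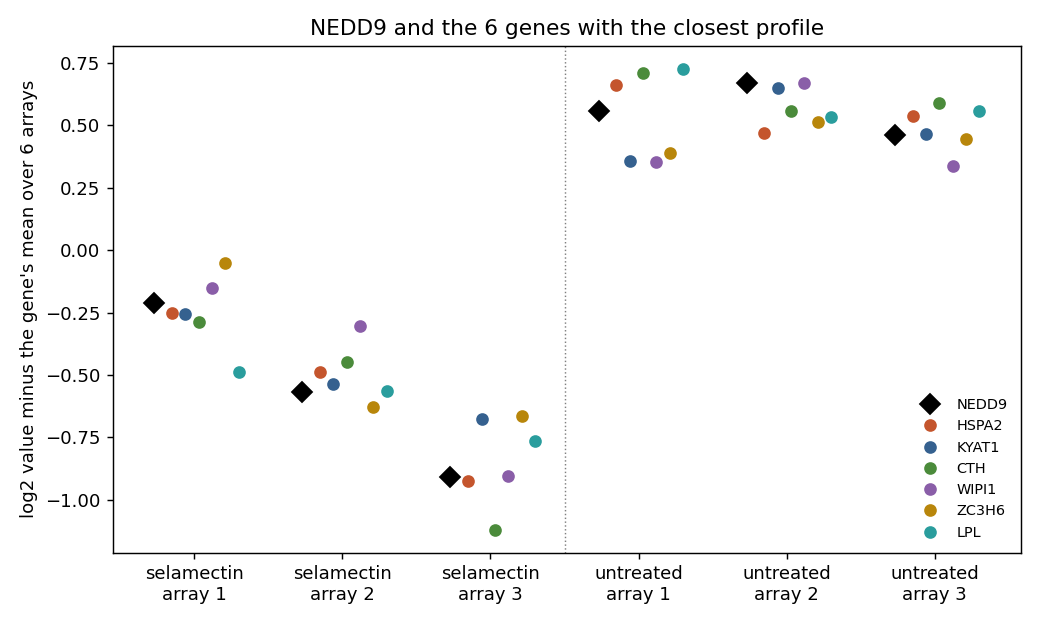
Log2 value minus the gene's mean over the 6 arrays (vertical axis) for NEDD9 (black diamonds) and the 6 genes with the closest profile (coloured circles), by array. Small RNA and placeholder symbols were skipped, and points are offset sideways to be visible. All 7 genes lie below their own mean on the selamectin arrays and above it on the untreated arrays, and selamectin array 3 is the lowest array of each.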

How the data were processed

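RNA of 6 cultures was labelled with whole-transcript kits and hybridised, 1 array per sample. The authors deposited 1 log2 expression value per transcript cluster and array (33297 clusters). Per the submitters' processing notes, the tools were RMA, Affymetrix Expression Console and Transcriptome Analysis Console, with no version or setting; the log base is taken from the range of values. RMA as commonly run forces the arrays to 1 distribution, so a shift of all genes would be lost. Array medians lay between 7.47 and 7.51. The platform annotation gave 1 symbol to 19460 clusters; where a gene had several, the brightest stood for it. The test was limma 3.58.1 under R 4.3.3 (eBayes with trend; selamectin minus untreated; two-sided; Benjamini-Hochberg over 18417 genes; threshold 0.05; no dim filter). Arrays have no read depth; the number of arrays limits precision (median SE 0.094 log2 units). The design text calls the replicates independent, without further account. Scan dates and detection calls were not used here. Named genes are the 10 members, and every called gene and the next 4 by p of each adhesion list given. The 6 closest profiles to NEDD9 are also named, with small RNA and placeholder symbols skipped. The members and lists were chosen with earlier results of these data known, and a further list is not reported here. The fit was tested on simulated data with 200 changed genes among 18417. It recovered 62% of the changes of 0.5 log2 units and 98% of those of 1 log2 unit. Of its 173 calls, 13 were false. The simulated noise was independent between genes and alike on all arrays, and the 200 changed genes were fewer than the 864 called here. These rates therefore need not hold for these arrays.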

Additional observations from a re-analysis of the deposited data

How the results depend on the processing

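Whichever array was left out, between 76 and 685 genes rose and between 100 and 464 fell over all genes, against 444 and 420 with 6 arrays; 0 rose and 0 to 1 fell among the 9 members other than NEDD9, and 1 to 6 of the 89 list genes passed. With array weights the counts were 1822 and 1464 over all genes, 1 (ZYX) and 1 (TLN1) among the members, and 21 of the list genes. With all clusters in the fit they were 104 and 145 over all genes and 1 of the list genes. At an adjusted p under 0.1 they were 879 and 723, 1 (ZYX) and 1 (TLN1), and 11. The CASS4 difference turned to -0.028 with array weights and lay between -0.033 and 0.084 when single arrays were left out; the cause was not tested. CASS4 and the list gene ITGA10 were not tested with the dimmest 25% of genes removed. No member other than CASS4 turned its sign in any setting in which it was tested. The same held for every list gene and NEDD9-like gene named above. The titles number the arrays in both groups. Deviations of same-numbered arrays correlated at -0.01, 0.24 and -0.14, and those of differently numbered arrays between -0.21 and 0.30. With 3 arrays per group these values do not show a pairing and cannot exclude one. With the replicate block 307 genes rose and 343 fell, and 6 list genes passed. The second quantile normalization, median centring, the dim filter, no trend, a robust fit and averaged clusters left each of these counts within 1.5 times the value given above. Without detection calls, what lies above background is not known.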
